A study of Mus musculus with 6 samples.

Results

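The TNF superfamily was followed by RNA sequencing in RAW264.7, a cell line of mouse macrophages, over 6 libraries. The family was taken as every row of the deposited gene table whose name begins with Tnfsf or Tnfrsf and a digit, together with Tnf, Fas, Fasl, Ltbr, Lta, Ltb, Cd27, Cd70 and Cd40lg, with 1 receptor gene left out. This gave 40 of 56748 genes, of which 17 encode ligands, 22 encode receptors and 1, Tnfsf13os, is a long noncoding RNA antisense to a ligand gene. Control cells (3 libraries) had been infected with lentivirus carrying a control vector, and Fbxw11 cells (3 libraries) with lentivirus carrying pMSCV-Fbxw11-pGk-GFP. All cells were sorted before RNA was taken. The control libraries carry the name GFP in their labels. What else the control vector holds, the sorting gate, any stimulation of the cells and whether replicates were infected separately are not stated in the labels. Each p-value therefore measures the spread between these libraries alone, and that spread may be technical.

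Ligands of the TNF superfamily are mostly trimeric membrane proteins, several of which are also released by proteolytic shedding. Their receptors carry cysteine-rich repeats outside the cell and signal through TRAF adaptors or, in the death receptors, through a cytoplasmic death domain, often towards NF-kB. Macrophages are a main source of TNF itself. Fbxw11 encodes beta-TrCP2, the substrate-recognition subunit of an SCF ubiquitin ligase whose known substrates include the NF-kB inhibitor IkB-alpha.

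Levels are given as FPKM, fragments scaled by gene length and by the size of the library. Fbxw11 served as the check of the labels and stood at 35.8, 36.5 and 36.0 FPKM in control libraries 1 to 3 and at 274, 272 and 268 FPKM in Fbxw11 libraries 1 to 3. Reads recovered from the values summed to between 16191971 and 18951653 per library. In the FPKM, the authors divided by a size that differed from this sum. It was 1.01 to 1.02 times the sum in the control libraries and 0.987 to 0.993 times in the Fbxw11 libraries. FPKM values of the groups are therefore scaled differently, lower in control and higher in Fbxw11 libraries than division by the sum would give. Of 9 macrophage markers, 8 averaged at least 1 FPKM, while Mertk was at or near 0. Of the 8, 4 rose by the test described below, where 4.60% of all genes tested rose. These were Adgre1 (1.46-fold) and Itgam (1.41-fold), called under all 15 alternatives tried, and Lyz2 and Fcgr1, whose calls were each lost under 12. None of the 15 T cell, NK cell, fibroblast and epithelial markers averaged at least 1 FPKM, whereas all 4 B cell markers averaged at least that. The B cell markers summed to 6.40 to 6.70 FPKM in control against 4.87 to 6.196 FPKM in Fbxw11 libraries. None of the 4 passed the test, and for each of them the groups overlapped. The 4 osteoclast markers summed to 11.97 to 13.3 FPKM in control against 8.23 to 9.56 FPKM in Fbxw11 libraries, where Acp5 fell and Calcr and Ocstamp were near 0. On the second principal component, control library 3 and Fbxw11 library 3 lay apart from the other 4. Of 3 endothelial markers, Pecam1 averaged over 1 FPKM. What part these differences have in the family's values was not tested, and in these bulk libraries fewer cells of a type and less RNA per cell cannot be told apart.

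For some members, chosen by position and by their values in these data, the 250 bases before the RefSeq transcription start are shown (RefSeq, build GRCm38.p6, 5′ to 3′ on the gene's strand). Whether these sequences have a part in the changes was not tested. The windows of Ltb, Tnf and Lta are shown because these 3 ligand genes lie next to each other and were all higher in the Fbxw11 libraries. Those of Tnfrsf1b and Tnfrsf8 are shown because these neighbouring receptor genes both passed the test. Capitals mark matches, on either strand, to a kappaB motif (GGG, any 2 bases, TTTCC) in Ltb, a TATA box (TATAAA) in Tnf and Lta, and an AP-1 motif (TGANTCA) in Tnfrsf8. The motifs do not overlap each other in these windows.
Ltb, chr17:35194257-35194506, plus strand: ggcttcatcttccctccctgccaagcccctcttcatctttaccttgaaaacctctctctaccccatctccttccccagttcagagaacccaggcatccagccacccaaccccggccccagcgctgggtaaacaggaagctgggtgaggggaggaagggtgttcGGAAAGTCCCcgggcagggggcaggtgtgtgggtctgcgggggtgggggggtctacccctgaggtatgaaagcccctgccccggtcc
Tnf, chr17:35202008-35202257, minus strand: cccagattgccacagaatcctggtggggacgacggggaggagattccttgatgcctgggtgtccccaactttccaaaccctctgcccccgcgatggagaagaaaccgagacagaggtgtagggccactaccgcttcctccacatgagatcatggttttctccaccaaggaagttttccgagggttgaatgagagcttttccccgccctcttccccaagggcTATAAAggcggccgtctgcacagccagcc
Lta, chr17:35205352-35205601, minus strand: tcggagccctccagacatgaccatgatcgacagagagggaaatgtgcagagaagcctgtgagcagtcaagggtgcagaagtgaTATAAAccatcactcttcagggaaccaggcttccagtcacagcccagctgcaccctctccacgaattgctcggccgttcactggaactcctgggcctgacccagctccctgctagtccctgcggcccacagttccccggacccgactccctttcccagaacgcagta
Tnfrsf1b, chr4:145246871-145247120, minus strand: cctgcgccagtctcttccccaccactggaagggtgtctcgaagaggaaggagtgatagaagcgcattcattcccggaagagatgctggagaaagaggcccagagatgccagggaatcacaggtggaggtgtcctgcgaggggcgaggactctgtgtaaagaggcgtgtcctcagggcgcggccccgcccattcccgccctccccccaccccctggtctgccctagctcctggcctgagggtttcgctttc
Tnfrsf8, chr4:145315165-145315414, minus strand: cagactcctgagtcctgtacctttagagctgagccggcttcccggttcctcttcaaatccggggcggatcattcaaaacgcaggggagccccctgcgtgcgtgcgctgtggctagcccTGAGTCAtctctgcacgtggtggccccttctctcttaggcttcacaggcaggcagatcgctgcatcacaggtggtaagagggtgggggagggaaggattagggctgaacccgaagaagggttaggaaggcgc

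Promoter windows were at hand for 30 of the 40 members, with 34 windows in all, and for 13 of the 18 members that were tested. The kappaB letters were found in 3 of the 34 windows (8.82%), those of Ltb, Tnfrsf9 and Tnfrsf25, against 1.41% of all 32851 windows of the same length. AP-1 letters occurred in 6 windows (17.6%, against 6.75% of all) and the TATA box in 6 (17.6%, against 12.4% of all). In Ltb the kappaB match ran from 87 to 78 bases before the start, and in Tnf the TATA match from 29 to 24 bases before it. The TATA letters of Lta lay further off, from 167 to 162 bases before the start. Of the 3 members with kappaB letters, Ltb rose, Tnfrsf9 did not pass the test and Tnfrsf25 had at most 1 read in a library. The windows of Tnfrsf1b, Tnfsf15 and Tnfrsf1a, which all rose, held none of the 3 motifs as spelled.

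Tnf made up most of the ligand transcript, and Tnfrsf1b was the most abundant receptor transcript. Tnf, the founding cytokine, stood at 466, 470.2 and 465 FPKM in control libraries 1 to 3 and at 516, 496 and 544 FPKM in Fbxw11 libraries 1 to 3. By mean FPKM it ranked 60 among the 10898 genes tested and took 87.8% to 89.0% of the summed FPKM of all ligand genes in each library. Tnfrsf1b, the gene of TNF receptor 2, which recruits TRAF2 and lacks a death domain, ranked 384. Its share of the summed receptor FPKM was 40.5% to 42.6% in control and 50.3% to 51.5% in Fbxw11 libraries, with no overlap.

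**Figure D1:**
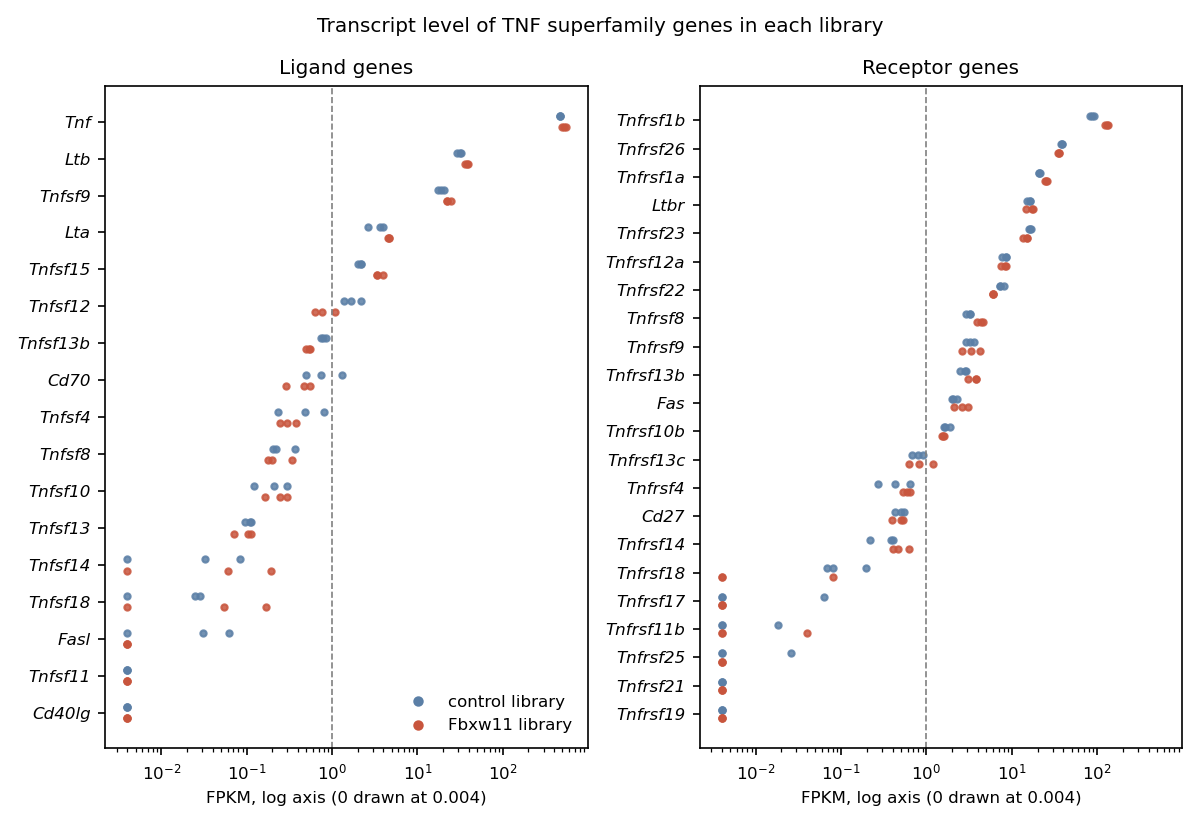
FPKM of the 17 ligand and 22 receptor genes on a log axis, with 1 point per library (blue control, red Fbxw11) and values of 0 drawn at 0.004. The dashed line marks 1 FPKM. Tnf stands far above the other ligands, and 22 of the 40 members, counting the antisense RNA that is not drawn, average under 1 FPKM.

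Where the mean over the 6 libraries reached 1 FPKM, a gene was tested with limma on log2(FPKM + 1), Benjamini-Hochberg adjusted over the 10898 such genes at a threshold of 0.05, and "rose" and "fell" are used of genes past it. Among the 40 members 18 were tested, 6 ligands and 12 receptors. Of these, 6 rose (Tnfrsf1b, Tnfsf15, Tnfrsf1a, Tnfrsf8, Ltb and Tnfsf9) and 1 fell (Tnfrsf22), which is 38.9% of the tested members against 9.24% of all genes tested on this scale. Over all genes 4.60% rose and 4.64% fell. The median log2 fold change was 0.18 over the 18 members and 0.0029 over all genes tested. The groups did not overlap for 13 tested members, where 31.1% of all genes tested did not, and of these 9 were higher and 4 lower in the Fbxw11 libraries, against 15.6% of all genes higher and 15.5% lower.

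How many members passed depended on scaling and on single libraries. On the TPM scale 4 rose (Tnfrsf1a, Tnfrsf1b, Tnfrsf8 and Tnfsf15) and 4 fell (Tnfrsf22, Tnfrsf23, Tnfrsf26 and Tnfsf12), where 9.73% of all genes passed, 3.19% rising and 6.53% falling. With voom on recovered reads 6 rose and 4 fell (Tnfrsf22, Tnfrsf23, Tnfrsf26 and Tnfsf12), where 14.3% of all genes passed, 4.77% rising and 9.53% falling. The number that rose was 2 without control library 1 or control library 2, and 3 without Fbxw11 library 1 or Fbxw11 library 2. Without both libraries numbered 3, an alternative chosen after the data were seen, 5 rose and Tnfrsf22 no longer passed (adjusted p = 0.0535). Of all genes tested, 366 rose in that fit. Tnfrsf1b and Tnfsf15 passed under all 15 alternatives tried.

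**Figure D2:**
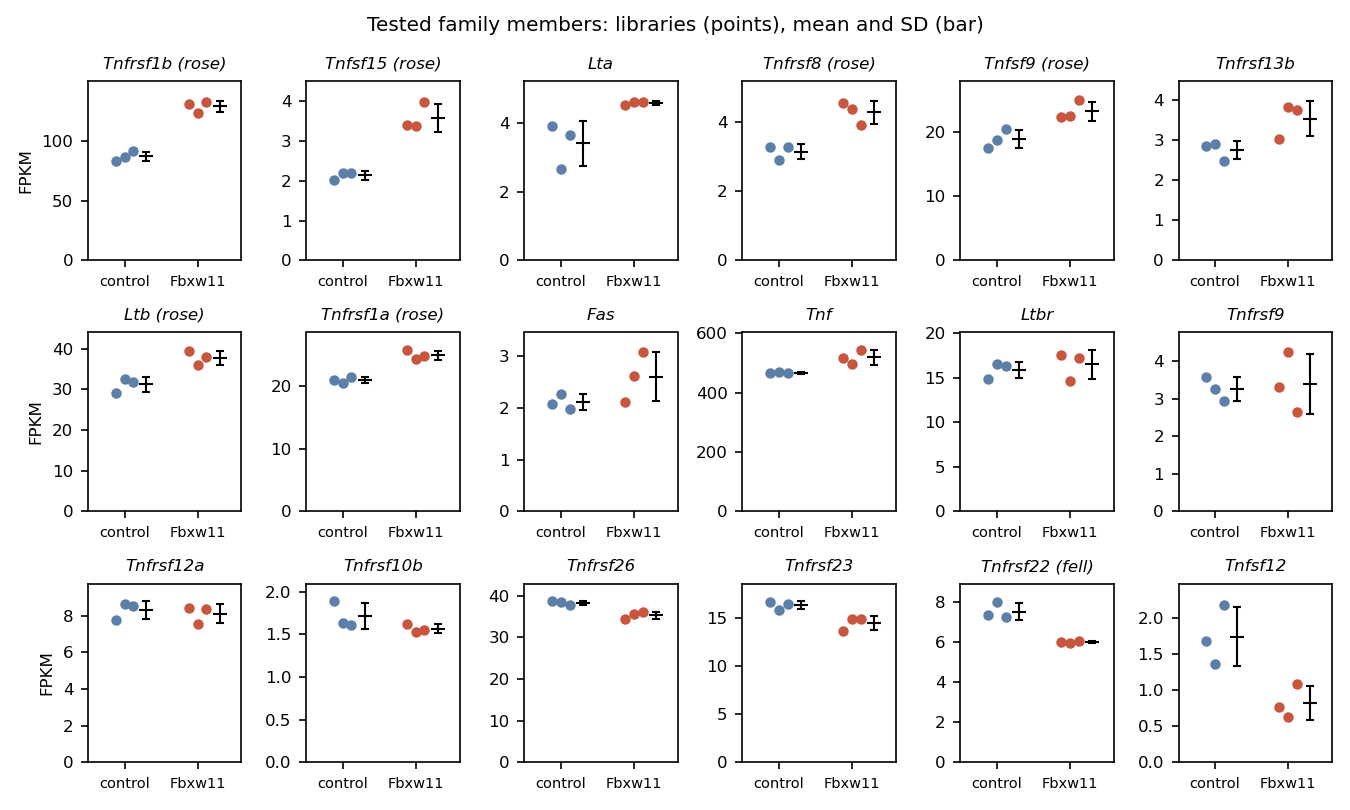
FPKM of the 18 tested members in each library (blue control, red Fbxw11), with the mean and SD over 3 libraries in black and every axis from 0. Panels run from the largest positive to the largest negative log2 fold change. In 13 panels the groups do not overlap, and the 7 genes past the threshold are named as rose or fell.

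The 2 receptors of TNF rose by different amounts. Tnfrsf1b stood at 83.3, 86.5 and 91.1 FPKM in control libraries 1 to 3 and at 131, 124 and 132 FPKM in Fbxw11 libraries 1 to 3, on 5228 to 8612 reads. Every Fbxw11 library was well above every control library, and means rose from 87.0 ± 3.93 to 129 ± 4.67 FPKM (SD, n = 3), or 1.48-fold (log2 fold change 0.56, SE 0.046, limma adjusted p = 0.00148). Tnfrsf1a, the gene of TNF receptor 1, which carries a death domain, stood at 21.0, 20.6 and 21.6 FPKM in control and at 25.8, 24.3 and 24.9 FPKM in Fbxw11 libraries. Here too the groups did not overlap, at 1.19-fold (log2 fold change 0.24, SE 0.037, limma adjusted p = 0.0123), but this call was lost without control library 1 (adjusted p = 0.0554) or control library 2 (0.0634), the alternatives ranging from 0.0123 to 0.0634.

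Ratios taken within a library do not depend on how libraries were scaled. Tnfrsf1b FPKM over Tnfrsf1a FPKM was 3.96, 4.20 and 4.22 in the controls, by replicate, against 5.07, 5.07 and 5.32 with Fbxw11. The ratio was higher in all 3 Fbxw11 libraries, at 5.15 ± 0.143 against 4.13 ± 0.143 (SD, n = 3, exact permutation p = 0.1, two-sided, the smallest that 3 against 3 libraries allow). Tnf FPKM over Tnfrsf1b FPKM was 5.60, 5.43 and 5.11 in control and 3.96, 4.01 and 4.11 in Fbxw11 libraries, again with no overlap (exact permutation p = 0.1). Tnf over Tnfrsf1a overlapped between groups, at 22.2 ± 0.627 and 20.8 ± 0.968 (SD, n = 3, exact permutation p = 0.2). Of 9 such ratios and sums computed, 7 had the smallest possible p, and adjusted over the 9 (Benjamini-Hochberg) none was below 0.129.

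**Figure D3:**
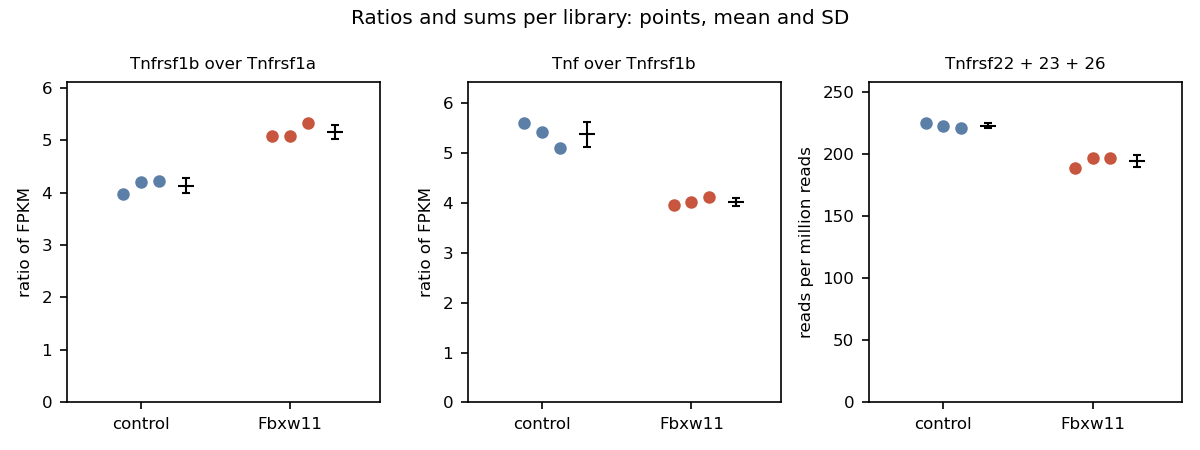
Ratio of Tnfrsf1b to Tnfrsf1a FPKM, ratio of Tnf to Tnfrsf1b FPKM, and summed reads of Tnfrsf22, Tnfrsf23 and Tnfrsf26 per 1000000 reads of the library, by library (points), with mean and SD over 3 libraries in black and axes from 0. In each panel the control and Fbxw11 libraries do not overlap: the ratios average 4.13 and 5.15, then 5.38 and 4.03, and the sums average 223 and 194 of these reads.

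Ltb, Tnf and Lta lie within 10.9 kb of each other on chromosome 17 (35413415 to 35424327, in coordinates as the file gives them, with no build stated there). Ltb encodes lymphotoxin beta, which anchors lymphotoxin alpha, the product of Lta, at the cell surface as a ligand of Ltbr. It stood at 29.2, 32.6 and 31.8 FPKM in control libraries 1 to 3 and at 39.4, 35.9 and 37.8 FPKM in Fbxw11 libraries 1 to 3. The groups were apart, and Ltb rose 1.21-fold (log2 fold change 0.27, SE 0.054, limma adjusted p = 0.0303). This call did not hold under 10 of 15 alternatives, each of the 6 left-out libraries among them, whose adjusted p lay between 0.0216 and 0.0934.

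The other two genes of this cluster were higher in every Fbxw11 library and did not pass. Tnf averaged 467 ± 2.58 FPKM in control against 519 ± 24.2 FPKM in Fbxw11 libraries (SD, n = 3, 1.11-fold, limma adjusted p = 0.0751). It passed under quantile normalization (0.0297), with the 15 alternatives between 0.0297 and 0.275. Lta was measured at 3.91, 2.67 and 3.67 FPKM in control libraries 1 to 3 and at 4.53, 4.62 and 4.63 FPKM in Fbxw11 libraries 1 to 3, on 71 to 114 reads (1.34-fold, limma adjusted p = 0.104). Control library 2 was the lowest, and the 3 Fbxw11 libraries were nearly equal. Within 100 kb of this cluster 14 genes outside the family were tested, chosen by position after the members' values were seen. Of these, 0 rose and 0 fell by limma after adjustment, where 4.60% of all genes tested rose and 4.64% fell. Mir6973a, Mir8094 and Gm25128 among them had at most 10 reads in a library. At an unadjusted limma p under 0.05 there were 2, Lst1 (higher) and Gm25128 (lower, on 0 to 9 reads). Voom on recovered reads called neither. Voom called 1 other gene there, H2-D1, lower, where 9.53% of all genes fell by voom.

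A further 2 ligand genes rose. Tnfsf15 encodes TL1A, the ligand of death receptor 3, and stood at 2.01, 2.20 and 2.20 FPKM in control libraries 1 to 3 and at 3.39, 3.37 and 3.99 FPKM in Fbxw11 libraries 1 to 3. This was the largest ratio among the members that rose, 1.68-fold (log2 fold change 0.55, SE 0.071, limma adjusted p = 0.00691), on 193 to 396 reads per library. The log2 fold change is on log2(FPKM + 1), which understates folds of low genes, and was 0.70 by voom. Tnfsf9, the ligand of 4-1BB, was found at 17.5, 18.8 and 20.4 FPKM in control and at 22.3, 22.5 and 25.0 FPKM in Fbxw11 libraries. Its groups were apart by less than the range within either group (1.23-fold, log2 fold change 0.29, limma adjusted p = 0.0491), and the call was lost under 9 of 15 alternatives, with adjusted p between 0.0254 and 0.146.

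Tnfsf12, which encodes TWEAK, was the tested ligand that was lower. It was listed at 1.69, 1.37 and 2.18 FPKM in control libraries 1 to 3 and at 0.770, 0.629 and 1.08 FPKM in Fbxw11 libraries 1 to 3. The control mean was 2.11 times the Fbxw11 mean, the largest ratio of any tested member, but it rested on 17 to 56 reads per library and did not pass (log2 fold change -0.58, limma adjusted p = 0.0519, alternatives 0.026 to 0.154). It passed under 4 of 15 alternatives, TPM scaling, voom, the replicate block and without Fbxw11 library 3. Its log2 fold change is on log2(FPKM + 1), which understates folds at such low levels, and was -1.10 by voom. Tnfsf12 overlaps the antisense Tnfsf13os over 9600 bases and a read-through gene, Tnfsfm13, on its own strand. Whether counting used strand, and how it split shared reads, was not given in the sources, so the separate values are uncertain. Reads of Tnfsf12, Tnfsf13 and Tnfsf13os together were 2.98 ± 0.642 per 1000000 reads in control and 1.496 ± 0.296 in Fbxw11 libraries (SD, n = 3, exact permutation p = 0.1). This sum leaves out Tnfsfm13, whose mean was 0.286 FPKM for the controls and 0.212 FPKM with Fbxw11. The sum therefore still depends on how reads were split with Tnfsfm13 and does not settle that uncertainty.

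Tnfrsf8 encodes CD30 and lies beside Tnfrsf1b on chromosome 4, the pair spanning 102 kb (144940033 to 145041734 in the file's coordinates). It stood at 3.27, 2.89 and 3.27 FPKM in control libraries 1 to 3 and at 4.54, 4.39 and 3.90 FPKM in Fbxw11 libraries 1 to 3. All 3 Fbxw11 libraries were higher, and Tnfrsf8 rose 1.36-fold (log2 fold change 0.35, SE 0.069, limma adjusted p = 0.0279), with the call lost under 7 of 15 alternatives (adjusted p 0.018 to 0.0976). The tested gene outside the family within 100 kb of the pair, Vps13d, averaged 2.48 FPKM in control against 2.64 FPKM in Fbxw11 libraries (limma adjusted p = 0.574).

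A cluster of receptor genes on chromosome 7 was lower in the Fbxw11 libraries. Tnfrsf26, Tnfrsf22 and Tnfrsf23 lie within 78.2 kb (143161396 to 143239609 in the file's coordinates). Tnfrsf22 and Tnfrsf23 encode mouse decoy receptors for TRAIL, and Tnfrsf26 a related receptor. Tnfrsf22 stood at 7.33, 8.01 and 7.23 FPKM in control libraries 1 to 3 and at 6.0, 5.94 and 6.04 FPKM in Fbxw11 libraries 1 to 3, and fell by 0.28 on the log2 scale (SE 0.048, limma adjusted p = 0.0159). The control mean was 1.26 times the Fbxw11 mean, and the call was lost under 6 of 15 alternatives (adjusted p 0.00284 to 0.0618), among them the omission of control library 1, control library 2, Fbxw11 library 1 or Fbxw11 library 2.

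Tnfrsf23 was measured at 16.6, 15.9 and 16.5 FPKM in control and at 13.7, 14.9 and 14.9 FPKM in Fbxw11 libraries (log2 fold change -0.17, limma adjusted p = 0.0759). Tnfrsf26, the second most abundant receptor of the family, was at 38.8, 38.4 and 37.8 FPKM in control and at 34.4, 35.7 and 36.0 FPKM in Fbxw11 libraries (log2 fold change -0.11, limma adjusted p = 0.0845). Neither passed on the FPKM scale, both passed on the TPM scale (adjusted p = 0.0403 and 0.0297), and in both genes the groups were apart. Their alternatives ranged from 0.0182 to 0.204 and from 0.022 to 0.229.

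These 3 genes resemble each other in sequence, so reads could be split between them in ways the sources used here do not describe. Summed, their reads were 225, 223 and 221 per 1000000 reads in the controls, by replicate, against 189, 197 and 198 per 1000000 reads with Fbxw11. The sum was lower in all 3 Fbxw11 libraries (0.871 times the control mean, exact permutation p = 0.1). As summed FPKM the difference was smaller, 62.2 in control and 55.8 in Fbxw11 libraries (0.898 times the control mean, exact permutation p = 0.1). The long noncoding RNA E230032D23Rik overlaps all 3 on the other strand and averaged 0.845 FPKM in control against 0.741 FPKM in Fbxw11 libraries. The tested genes outside the family within 100 kb, Nap1l4 and Cars, had means of 55.8 and 54.3 FPKM and of 31.9 and 32.4 FPKM (limma adjusted p = 0.585 and 0.697).

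The remaining tested receptors did not pass. Tnfrsf13b, the TACI receptor for BAFF and APRIL, was higher without overlap, at 2.85, 2.92 and 2.50 FPKM in control against 3.03, 3.83 and 3.77 FPKM in Fbxw11 libraries (1.29-fold, limma adjusted p = 0.12). Fas, a death receptor, stood at 2.06, 2.27 and 1.97 FPKM in control and at 2.11, 2.61 and 3.07 FPKM in Fbxw11 libraries, where Fbxw11 library 1 lay within the control range (adjusted p = 0.289). Ltbr, the lymphotoxin beta receptor, overlapped between groups at 15.9 ± 0.895 and 16.5 ± 1.59 FPKM (SD, n = 3, limma adjusted p = 0.762).

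Tnfrsf12a, the receptor of TWEAK, was at 8.31 ± 0.495 and 8.11 ± 0.499 FPKM in control and Fbxw11 libraries (limma adjusted p = 0.803). Tnfrsf9, which encodes 4-1BB, was at 3.25 ± 0.325 and 3.39 ± 0.809 FPKM (0.914), and on the TPM scale its sign was the opposite. Its Fbxw11 libraries, at 3.29, 4.24 and 2.63 FPKM, spread on both sides of the control libraries. Tnfrsf10b, the mouse TRAIL death receptor, was at 1.71 ± 0.152 and 1.56 ± 0.052 FPKM (0.547). These values are means with SD over n = 3 libraries, and the groups of Tnfrsf12a, Tnfrsf9 and Tnfrsf10b overlapped.

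**Figure D4:**
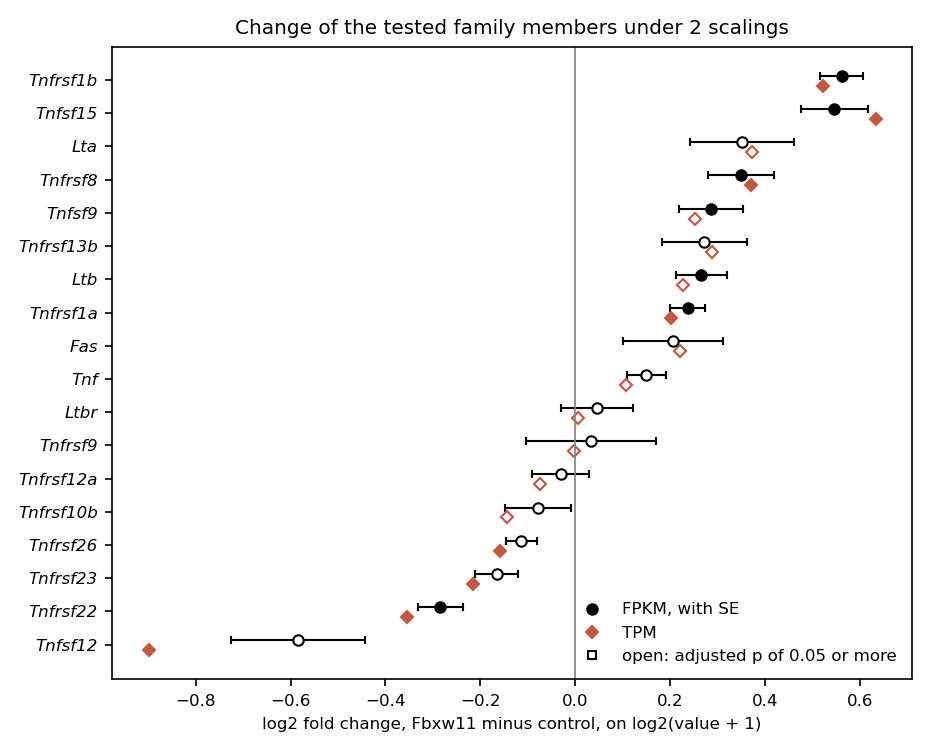
Log2 fold change (Fbxw11 minus control) of the 18 tested members on log2(value + 1), from FPKM with its standard error (circles) and from TPM (diamonds), filled where the adjusted p is below 0.05. The symbols run from Tnfrsf1b at 0.56 to Tnfsf12 at -0.58 on the FPKM scale, where 7 are filled, and 8 are filled on the TPM scale.

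The other 22 members averaged under 1 FPKM and were not tested. Of the 11 ligand genes among them, Tnfsf13b, which encodes the B cell survival factor BAFF, stood at 0.859, 0.742 and 0.790 FPKM in control libraries 1 to 3 and at 0.501, 0.546 and 0.538 FPKM in Fbxw11 libraries 1 to 3. It was the untested member with no overlap between groups, on 56 to 98 reads, and when no filter was applied its limma adjusted p was 0.171. Cd70 ranged from 0.292 to 1.30 FPKM, Tnfsf4 (OX40 ligand) from 0.231 to 0.800 FPKM, Tnfsf8 (CD30 ligand) from 0.177 to 0.372 FPKM and Tnfsf10 (TRAIL) from 0.123 to 0.300 FPKM. Their groups overlapped.

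Tnfsf13 (APRIL), Tnfsf14 (LIGHT), Tnfsf18 (GITR ligand) and Fasl (Fas ligand) had at most 6 reads in a library. Cd40lg and Tnfsf11, the genes of CD40 ligand and of an osteoclast differentiation factor, had 0 reads throughout, so that up to 3 reads a library remain possible, or 0.147 and 0.0824 FPKM at the lowest depth. Of the 10 untested receptor genes, Tnfrsf13c (BAFF receptor) ranged from 0.630 to 1.20 FPKM, Tnfrsf4 (OX40) from 0.267 to 0.648 FPKM, Cd27 from 0.396 to 0.549 FPKM and Tnfrsf14 (HVEM) from 0.217 to 0.623 FPKM. Cd27 overlaps the expressed gene Vamp1 on the other strand, so its reads are uncertain without stranded counting. Tnfrsf18 (GITR), Tnfrsf17 (BCMA), Tnfrsf11b (osteoprotegerin) and Tnfrsf25 (death receptor 3) had at most 5 reads in a library. Tnfrsf19 and Tnfrsf21 had 0 reads in each. The antisense RNA Tnfsf13os had at most 4 reads. At such counts a difference between groups was not detectable at this depth.

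Family genes that the naming rule does not take were read from the same fit. Cd40, the costimulatory receptor that signals through TRAF proteins, was at 8.27, 8.80 and 9.68 FPKM in control and at 12.6, 13.8 and 13.6 FPKM in Fbxw11 libraries. All Fbxw11 libraries were above all control libraries, and Cd40 rose 1.499-fold (log2 fold change 0.54, SE 0.064, limma adjusted p = 0.00516, passed under all 15 alternatives). Relt did not pass (1.14 ± 0.225 and 0.867 ± 0.111 FPKM, SD, n = 3, limma adjusted p = 0.324). Eda2r ranged from 0.390 to 0.707 FPKM, and Eda, Edar and Ngfr had 0 reads in each library.

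Of 28 genes for proteins that act directly downstream of these receptors, 27 were tested, 5 rose and 0 fell by limma, where 4.60% of all genes tested rose and 4.64% fell, with a median log2 fold change of 0.048. No member of the list was lower at an unadjusted p under 0.05, and voom on recovered reads called none lower. Those that rose with the smallest p were the adaptor Traf1 (20.1 ± 0.508 to 28.0 ± 0.757 FPKM, log2 fold change 0.46), the caspase-8 inhibitor Cflar (59.5 ± 1.28 to 73.3 ± 1.26 FPKM, 0.30), the NF-kB inhibitor Tnfaip3 (13.3 ± 0.487 to 17.02 ± 0.504 FPKM, 0.33) and the ubiquitin ligase Birc3 (22.3 ± 0.258 to 25.5 ± 0.610 FPKM, 0.18). The calls of Traf1, Cflar and Tnfaip3 held under all 15 alternatives, and that of Birc3 was lost under 8. Otulin, a deubiquitinase of linear chains, was the fifth, named because so few passed (0.23, lost under 9 of 15 alternatives). The receptor-proximal genes Tradd, Fadd, Ripk1, Traf2 and Birc2 were tested and did not pass. Ripk1 stood at 7.16 ± 0.637 and 7.21 ± 0.242 FPKM.

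Of 6 genes of ligand and receptor shedding, 4 were tested, 1 rose and 0 fell by limma, beside the same 4.60% and 4.64% of all genes, with 1, Adam10, lower at an unadjusted p under 0.05 and 0 lower by voom. Adam17, the protease that releases TNF, was at 38.2, 37.5 and 36.4 FPKM in control and at 38.6, 39.3 and 38.1 FPKM in Fbxw11 libraries, with overlap (limma adjusted p = 0.428). Rhbdf2, which encodes the inactive rhomboid protein iRhom2 that brings ADAM17 to the cell surface, rose from 21.3 ± 0.607 to 26.1 ± 1.18 FPKM (log2 fold change 0.28, limma adjusted p = 0.0132). That call was lost without control library 1 or control library 2. Timp3, an inhibitor of ADAM17, had 0 reads in each library.

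Of 10 genes that control decay or stability of Tnf and other cytokine mRNAs, all were tested, 2 rose and 1 fell, where 9.24% of all genes tested changed. At an unadjusted limma p under 0.05, 2 were lower, Rc3h1 and Zfp36l2, the second of which passed on the TPM scale (adjusted p = 0.0387). Zfp36, which encodes tristetraprolin, rose from 94.9 ± 2.50 to 118 ± 9.06 FPKM (SD, n = 3, log2 fold change 0.31, limma adjusted p = 0.0218), and Zfp36l1 from 11.8 ± 0.844 to 15.1 ± 0.907 FPKM (0.33, adjusted p = 0.0269). Rc3h1, the gene of roquin-1, fell from 11.6 ± 0.333 to 10.1 ± 0.326 FPKM (-0.18, adjusted p = 0.0408). These 3 calls were lost under 7, 8 and 10 of 15 alternatives.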

How the data were processed

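RNA sequencing libraries of RAW264.7 cells (3 control, 3 Fbxw11) were analysed from 1 table in which the authors had deposited FPKM for 56748 genes with gene length (the authors' other deposited values) and coordinates. The submitters' processing notes name mm10, but 0 of the 40 members have the start and end of the GRCm38 annotation GENCODE M21, so coordinates are given as the file's own, build not stated. Aligner, counter and strand setting were not given in the sources used. FPKM times gene length and a library size found for each library gave whole reads (within 0.02) for every value, 16191971 to 18951653 per library. That size was 1.01 to 1.02 times the sum of reads in control and 0.987 to 0.993 times in Fbxw11 libraries. Depth sets the precision of low genes.

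Genes averaging 1 FPKM or more were fitted with limma 3.58.1 (R 4.3.3, mean-variance trend) on log2(FPKM + 1), which understates folds of low genes, and adjusted over 10898 genes. Ratios were compared by exact permutation (SciPy 1.17.1). A further 15 alternatives (pseudocount, filter, TPM, quantile, voom, trend, replicate block, libraries left out) were run, 1 of them added after the data were seen. Scripts were tested on simulated data. Promoters came from RefSeq (GRCm38.p6), limited to bases before the start. Named were all tested members, and of other lists those past the threshold with the smallest p. Members and lists were chosen with earlier results of these data known. The groups share replicate numbers, but 2 of the 3 same-numbered pairs deviated together by a correlation under 0.1 (0.0361 and 0.0405, with 0.189 for number 3), so no block entered.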

Additional observations from a re-analysis of the deposited data

How the results depend on the processing

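Tnfrsf1b, Tnfsf15, Cd40, Traf1, Cflar and Tnfaip3 kept their direction and passed under all 15 alternatives. Without a filter on low values 596 of all genes changed (289 rose, 307 fell), with 3 members rising and 0 mRNA decay genes rising or falling. With voom on recovered reads 1559 changed and 1039 fell, 4 members among them. TPM gave 4 members and 2 mRNA decay genes that fell, and Tnfrsf9 turned sign (log2 fold change -0.0035). Rises made up 49.8% of all calls from FPKM, 32.8% from TPM and 33.4% from voom, with the median log2 fold change of all genes at 0.0029, -0.038 and -0.034. Quantile normalization gave 2 members that fell, 3 signalling partners that rose and 1 mRNA decay gene that rose. With no mean-variance trend 0 mRNA decay genes fell. Without replicate 3 of both groups 336 of all genes fell, 0 members and 0 mRNA decay genes among them, and 1 mRNA decay gene rose. The cause was not tested.

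With the replicate block 621 genes changed (303 rose, 318 fell), 4 members rose and 1 fell (Tnfsf12), and 0 mRNA decay genes rose or fell. Same-numbered libraries correlated at 0.0361, 0.0405 and 0.189, and not every library correlated best with its own number. The 0.189 of number 3 was the highest correlation of any control library with any Fbxw11 library. Whether the numbers pair the samples or mark a batch is not stated in the labels. Beyond this block and these correlations, a batch shared by number was not tested.

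Leaving out each library in turn gave 409 to 801 changed genes (190 to 418 rose, 219 to 383 fell). Members that rose numbered 2 to 4 and those that fell 0 to 2. Signalling partners that rose numbered 3 to 5 and those that fell 0 to 0, shedding genes that rose 0 to 1, and mRNA decay genes that rose 0 to 1 and that fell 0 to 0. The log2 fold change of Tnfrsf9 lay between -0.10 and 0.16, and that of Tnfrsf12a between -0.076 and 0.016. Among tested members, reads were fewest for Tnfsf12 (17 to 56), Fas (69 to 108) and Lta (71 to 114), and the 22 untested members are limited by depth as well.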

Other observations

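Set beside each other as ligand and receptor, the family's levels in these cells were uneven. Tnfsf9 averaged 18.9 FPKM in control against 23.3 FPKM in Fbxw11 libraries, while its receptor gene Tnfrsf9 averaged 3.25 and 3.39 FPKM. Tnfsf15 rose to 3.58 FPKM where its receptor gene Tnfrsf25 had at most 1 read in a library. Ltb, at 31.2 and 37.7 FPKM, stood above both Lta, at 3.42 and 4.59 FPKM, and the receptor gene Ltbr, at 15.9 and 16.5 FPKM.

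For other pairs the receptor was the more abundant transcript. Fas averaged 2.10 and 2.60 FPKM in control and Fbxw11 libraries, and Fasl had at most 2 reads in a library. Tnfrsf12a, at 8.31 and 8.11 FPKM, exceeded its ligand gene Tnfsf12, at 1.75 and 0.828 FPKM. Tnfrsf8 rose to 4.28 FPKM, whereas its ligand gene Tnfsf8 averaged 0.267 and 0.239 FPKM. Tnfrsf10b and the decoy receptor genes Tnfrsf22 and Tnfrsf23 averaged 1.71, 7.52 and 16.3 FPKM in control libraries, against 0.210 FPKM for Tnfsf10, the TRAIL gene. These are levels of transcript per gene length within the same libraries, and no test was run on the pairs.

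The 17 members with no other member within 100 kb and the 23 members in 9 clusters were mapped from the file's own coordinates. Among the clusters, Tnfrsf1b with Tnfrsf8 was the 1 in which more than 1 member rose, where 4.60% of all genes tested rose. The call of Tnfrsf8 was lost under 7 of 15 alternatives. More than 1 rise could not be seen in clusters with 0 tested members (Tnfsf4 with Tnfsf18, Tnfrsf4 with Tnfrsf18) or 1. Those with 1 were Tnfsf13os with Tnfsf13 and Tnfsf12, Tnfsf9 with Cd70 and Tnfsf14, and Tnfsf15 with Tnfsf8.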
